A study of Arabidopsis thaliana with 4 samples.

Results

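Dehydrins and their companions are hydrophilic, mostly small proteins that plants make when water is short, and 10 of their genes were followed here in roots of Arabidopsis thaliana. The genes were taken by locus: the dehydrins COR47, ERD10, ERD14 and RAB18, the cold-induced pair KIN1 and KIN2, RD29A, the chloroplast-targeted pair COR15A and COR15B, and SAG21. They are 10 of the 26822 gene lines used. RNA-seq was done on 2 libraries of SCL28-OX, labelled as line #10, and on 2 libraries of wild type (WT). SCL28-OX overexpresses SCL28, which encodes a GRAS-family transcription factor known for its role in the cell cycle. Both genotypes are of the Col-0 ecotype and were 5-d-old seedlings from half-strength MS agar kept in constant light at 22 °C, with no cold, drought or abscisic acid (ABA) treatment named. SCL28-OX is a single line here, so a property of that line and of SCL28 overexpression cannot be told apart, and no promoter driving SCL28 is named in the labels. The labels call the tissue root tip, whereas the extraction text speaks of roots. Nothing in them states that the 2 libraries per genotype stem from different cultures. The p-values below therefore measure the spread between libraries alone, which may be technical.

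Dehydrins belong to the late embryogenesis abundant (LEA) proteins, which have little fixed structure and are known to protect membranes and enzymes when cells lose water. Many of their genes are switched on by cold through CBF/DREB1 factors, which bind the CRT/DRE element with the core CCGAC, and by ABA through AREB/ABF factors, which bind the ABA-responsive element (ABRE) with the core ACGTG. In the ABA pathway PYR/PYL receptors inhibit clade A PP2C phosphatases, which frees SnRK2 kinases to activate the ABF factors. In unstressed plants some dehydrins are also made steadily in growing root tissue.

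SAG21 fell most, to 39.5% of its WT level, and 6 other genes of the set fell to between 62.1% and 77.8%. These were ERD10, KIN2, KIN1, COR47, RD29A and ERD14. None of the 7 tested genes was higher. RAB18 stayed below 1 FPKM in every library and was not tested, and COR15A and COR15B were listed at 0 in all 4. FPKM is the number of fragments scaled by transcript length and by library size, so that levels may be compared between genes. The test was limma on log2(FPKM + 1) across the 18087 genes that averaged 1 FPKM or more, with an adjusted p of 0.05 as the threshold. A log2 change is SCL28-OX minus WT on that scale. Of the 7 genes tested, 7 were lower, with a median log2 change of -0.58. Over all tested genes 33.8% were lower and 32.7% were higher, and the median log2 change was -0.01. Both SCL28-OX libraries lay below both WT libraries in each of the 7 genes, an order that 42.1% of all tested genes also had.

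The stretches printed next show where the binding-site cores of cold and ABA signalling lie before the deposited gene start. Shown are the gene that fell most (SAG21), a gene known for its cold and drought promoter (RD29A) and a gene listed at 0 (COR15A). A pair of neighbouring copies (KIN1 and KIN2) and the most abundant gene of the set (COR47) follow. The stretches were read from the RefSeq genome TAIR10.1, whose nuclear coordinates are those of TAIR10, in the 250 bases before the deposited gene start. They run 5′ to 3′ along the gene's own strand, and capitals mark ACGTG or CCGAC on either strand (a palindromic CACGTG holds ACGTG on each strand). For SAG21 and RD29A only bases outside annotated exons are shown, and for KIN1, KIN2 and COR47 a stretch of 30 bases around a core. Those 30-base stretches lie downstream of the RefSeq gene start. SAG21 is shown for chr4:1047106-1047247 on the minus strand, RD29A for chr5:21240599-21240716 on the plus strand and COR15A for chr2:17712331-17712580 on the minus strand. For KIN1 the stretches are chr5:5209769-5209798 and chr5:5209802-5209831, and for KIN2 chr5:5211736-5211765 and chr5:5211769-5211798, all on the plus strand. COR47 is shown for chr1:7085915-7085944 on the minus strand.
SAG21: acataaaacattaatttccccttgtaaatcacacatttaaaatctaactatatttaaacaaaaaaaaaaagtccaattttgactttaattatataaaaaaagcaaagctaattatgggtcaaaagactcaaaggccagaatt
RD29A: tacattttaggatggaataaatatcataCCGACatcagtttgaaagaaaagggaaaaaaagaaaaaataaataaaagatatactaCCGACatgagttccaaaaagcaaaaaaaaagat
COR15A: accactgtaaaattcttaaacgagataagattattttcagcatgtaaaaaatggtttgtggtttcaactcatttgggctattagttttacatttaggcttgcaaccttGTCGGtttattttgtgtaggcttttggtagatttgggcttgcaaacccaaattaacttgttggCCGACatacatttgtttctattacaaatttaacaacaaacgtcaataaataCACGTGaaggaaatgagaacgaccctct
KIN1, ABRE core: aaactaaaacgaCACGTGaagtcttgatca
KIN2, ABRE core: aaactaaaacgaCACGTGatgtcttgatca
KIN1, CRT/DRE core: gataaatagctaCCGACataaggcaaaact
KIN2, CRT/DRE core: aataaaaagctaCCGACataaggcaaaaat
COR47, CRT/DRE core: gatattcatctaCCGACttcaagaaataag

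Cores were not spread evenly over the 10 genes. ACGTG was found in the 250-base window of 7 of the 10, against 24.9% of 26008 windows of all genes. CCGAC was likewise found in 7 of 10, against 13.1% of all windows. SAG21 and ERD10 held neither core in their windows. COR47 held 1 CRT/DRE core and ERD14 held 1 ABRE core. A link between the cores and the size of the falls was not tested. RD29A had 3 CRT/DRE cores, at 222, 165 and 128 bases before its start, and 1 ABRE core at 63 bases. COR15A and COR15B, both listed at 0, held both kinds of core. KIN2 counted 6 ABRE matches and KIN1 counted 4, where each CACGTG counts once per strand. The larger count of KIN2 came from a further CACGTG at 73 bases before its start. A match is a description of letters in this window and not a measured site. The RefSeq start lies upstream of the deposited start in COR47 (by 1101 bases), COR15B (488), RAB18 (205), KIN2 (192), KIN1 (181), RD29A (132) and SAG21 (108), so for these genes part of the window is transcribed in some annotated models.

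**Figure D1:**
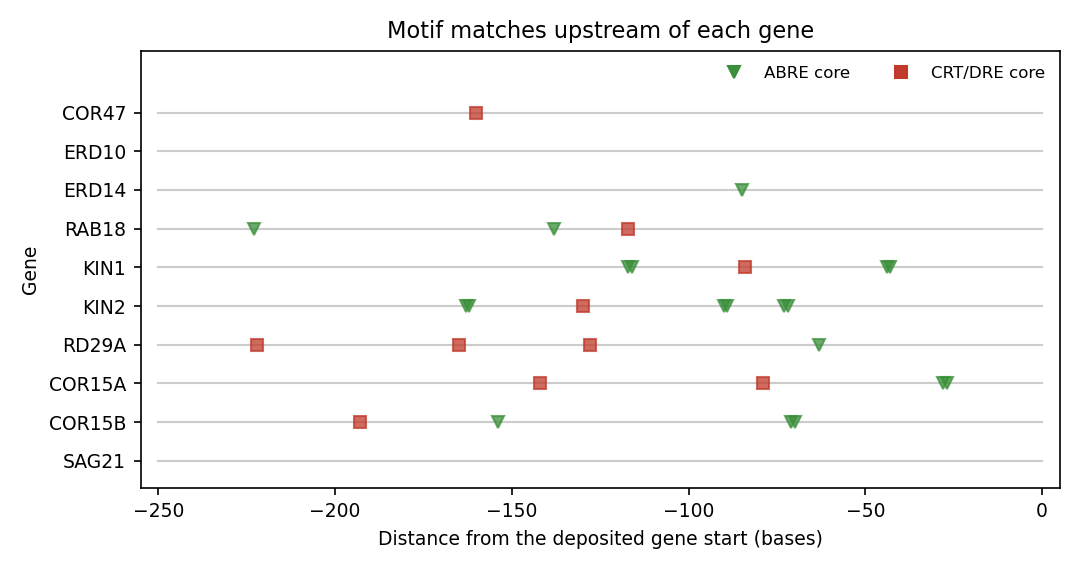
Positions of ABRE cores (triangles) and CRT/DRE cores (squares) on either strand in the 250 bases before the deposited start of each gene; the x axis is the distance from that start in bases. SAG21 and ERD10 show neither core, while RD29A shows 3 CRT/DRE cores and 1 ABRE core.

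SCL28 (AT1G63100, chromosome 1, 23399391 to 23401367) had 2378.06 and 2300.22 FPKM in the SCL28-OX libraries, against 6.78 and 7.57 FPKM in the WT libraries, so the gene stood far higher in the libraries labelled SCL28-OX. Its log2 change was 8.16 (SE 0.044, limma adjusted p = 1.31e-10). The FPKM steps implied scaling totals of 28.2 and 26.0 M fragments (M: 1e6) in SCL28-OX and 33.0 and 27.8 M fragments in WT. Median-ratio size factors compare each library's FPKM with the geometric mean of the 4. They were 0.9985 and 1.001 in SCL28-OX and 1.0023 and 1.0015 in WT. Scaling by mapped totals alone need not bring them so near 1, so the totals may not be library depths. Factors near 1 also place the median change over all genes near 0, so that median is not a separate result. With those totals 1 FPKM of a 1000-base transcript stands for 21.7 to 27.6 fragments. The summed FPKM was 848731 and 849311 in SCL28-OX and 951429 and 945618 in WT. Root meristem and cap markers were present in every library, with a summed level of 74.2 to 74.5 FPKM in SCL28-OX and 66.5 to 71.2 FPKM in WT. Of these 6 markers SCR was higher, PLT1 was lower and 4 did not pass the test. Markers of differentiated root, such as CASP1 of the Casparian strip, were at higher levels, with summed FPKM of 485.3 to 496.1 in SCL28-OX and 464.5 to 473.7 in WT. Of these 5, 3 were higher and 2 lower. Among 9 photosynthesis markers of the shoot, 7 were tested and 6 were higher, with summed levels of 232.6 to 233.0 FPKM in SCL28-OX and 152.9 to 155.8 FPKM in WT. These marker counts stand beside 32.7% higher and 33.8% lower among all tested genes. With the correction for length and GC content described below, 6 photosynthesis markers stayed higher, with a median log2 change of 0.35 against 0.58 without correction. The meristem and cap list then had 1 higher and 2 lower. Of 6 seed storage and maturation markers none reached the filter and 4 (EM1, CRC, OLEO1 and SESA1) were listed at 0 in all libraries. In bulk RNA fewer cells of a type and less RNA per cell cannot be told apart, and the part of these marker differences in the results below was not tested.

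One property of the whole table touches every value below. Short transcripts tended to be lower in SCL28-OX and long ones higher. Across 17723 genes the log2 change had a Spearman rho of 0.68 with the exon length inside the deposited interval, a description across genes that are not independent of each other. The median log2 change was -0.42 in the shortest of 10 length groups (111 to 746 bases) and 0.48 in the longest (2885 to 16368 bases). The trend runs along the genotypes, so in these 4 libraries it and an effect of genotype on single genes cannot be told apart. Each change is therefore given again after each library was corrected for its trend with that length, an alternative added after the data were seen. After that correction 25.2% of all genes were lower and 21.1% higher, and the 7 tested genes were all lower with a median log2 change of -0.28, against a median of -0.02 for all genes. With the longest annotated transcript as the length, 7 of 7 were also lower, with a median of -0.57 (24.9% of all genes lower and 21.9% higher). With that length and GC content together 6 of 7 were lower, with a median of -0.42 (22.9% of all genes lower and 19.9% higher). The set's median therefore depends on which length is taken. Below, "the length correction" is the one by length in the interval, and the others are given where they change a call or move a value far.

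**Figure D2:**
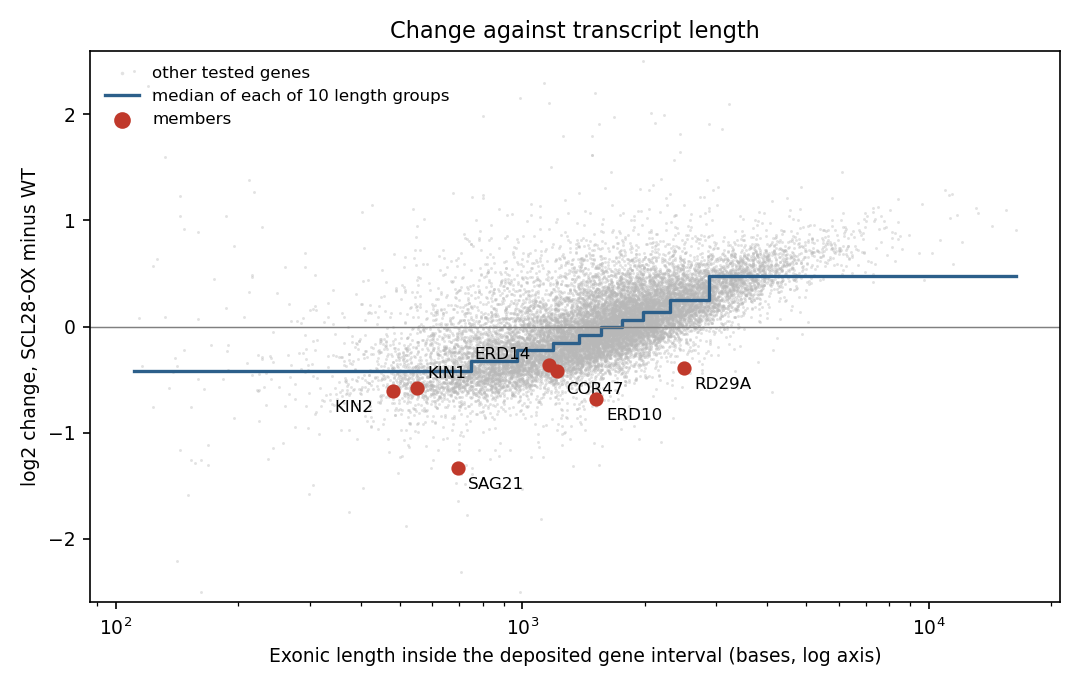
Log2 change (SCL28-OX minus WT) of each tested gene against the exon length inside its deposited interval in bases, on a log axis; red points are the 7 tested genes of the set, grey points the other genes and the blue line is the median of each of 10 length groups, which runs from -0.42 to 0.48. SAG21, ERD10 and RD29A lie well below the line at their lengths, and 3 grey points beyond 2.5 are drawn at 2.5.

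COR47 (AT1G20440, chromosome 1, 7084409 to 7085772) encodes an acidic dehydrin of the cold and drought response. Its level was 1532.43 and 1509.72 FPKM in SCL28-OX, against 2044.16 and 2027.38 FPKM in WT. It was the most abundant gene of the set and ranked number 16 of all lines in both genotypes. The libraries of a genotype agreed closely and the genotypes did not overlap. The mean was 1521 ± 16.1 FPKM in SCL28-OX and 2036 ± 11.9 FPKM in WT (SD, n = 2 each), or 74.7% of WT. The log2 change was -0.42 (SE 0.016, limma adjusted p = 1.11e-06). With the length correction it was -0.28 (adjusted p = 1.84e-05). It was -0.57 (adjusted p = 9.35e-07) with the longest annotated transcript, which at 2320 bases reaches past the deposited interval with its 1219 bases of exon, and -0.42 with that length and GC content. COR47 lost its call only under quantile normalization among the alternatives run (0.00, adjusted p = 1.000), a procedure that gives equal values to genes of equal rank.

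ERD10 (AT1G20450, chromosome 1, 7088003 to 7089606), the neighbouring acidic dehydrin gene, had 293.04 and 291.11 FPKM in SCL28-OX, against 471.32 and 469.24 FPKM in WT. The gap between genotypes was far wider than the gap between libraries. It averaged 292 ± 1.36 FPKM in SCL28-OX and 470 ± 1.47 FPKM in WT (SD, n = 2 each), or 62.1% of WT. The log2 change of -0.69 (SE 0.019, limma adjusted p = 4.86e-07) was the 349th largest fall of 18087. After the length correction it was -0.65, the 141st largest fall of 17723. Quantile normalization gave -0.44, and the correction for length and GC content gave -0.54. ERD10 has 1514 bases of exon in its interval, and the median gene of 1381 to 1557 bases had a log2 change of -0.08.

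COR47 and ERD10 lie next to each other and are 80.6% identical over the aligned bases of their exons (872 of 1082). ERD10 fell by more than COR47. The ratio of COR47 to ERD10 in FPKM was 5.23 and 5.19 in SCL28-OX, against 4.34 and 4.32 in WT, so that the ratios did not overlap. The log2 changes of the 2 genes differed by 0.27. With 2 libraries against 2 no exact permutation test can pass the threshold, and none was run. No stretch of 50 bases in either gene's exons occurred elsewhere in the nuclear genome. Before their starts the windows were 63.3% identical over the aligned bases (138 of 218).

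ERD14 (AT1G76180, chromosome 1, 28586676 to 28587931), a further acidic dehydrin, had 1154.50 and 1159.19 FPKM in SCL28-OX, against 1507.54 and 1467.68 FPKM in WT. Here too the genotypes did not overlap, although the WT libraries lay further apart than those of SCL28-OX. ERD14 averaged 1157 ± 3.32 FPKM in SCL28-OX and 1488 ± 28.2 FPKM in WT (SD, n = 2 each), or 77.8% of WT. The log2 change was -0.36 (SE 0.019, limma adjusted p = 2.95e-06), the smallest of the tested genes. It was sensitive to how length was treated. It came to -0.20 with the length correction, -0.15 with the longest transcript as length, -0.05 (adjusted p = 0.0469) with length and GC content, and -0.09 under quantile normalization.

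RAB18 (AT5G66400, chromosome 5, 26518277 to 26519242) encodes a basic dehydrin used as a marker of ABA response. It had 0.715 and 0.715 FPKM in SCL28-OX, against 0.518 and 0.517 FPKM in WT. Those values rest on about 14 and 13 fragments in SCL28-OX and 12 and 10 in WT. Both SCL28-OX libraries lay above both WT libraries, as they did in 41.4% of all tested genes, but RAB18 was under the filter and was not tested. In the authors' deposited table its q-value was 0.355. A test with no filter on low values gave a log2 change of 0.18 (limma adjusted p = 0.0471). The SD between libraries was 0.000125 FPKM in SCL28-OX and 0.000506 FPKM in WT. Counts this small vary by more than that, so this p-value understates the error and carries little weight. RAB18 had 2 ABRE cores and 1 CRT/DRE core in its window.

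**Figure D3:**
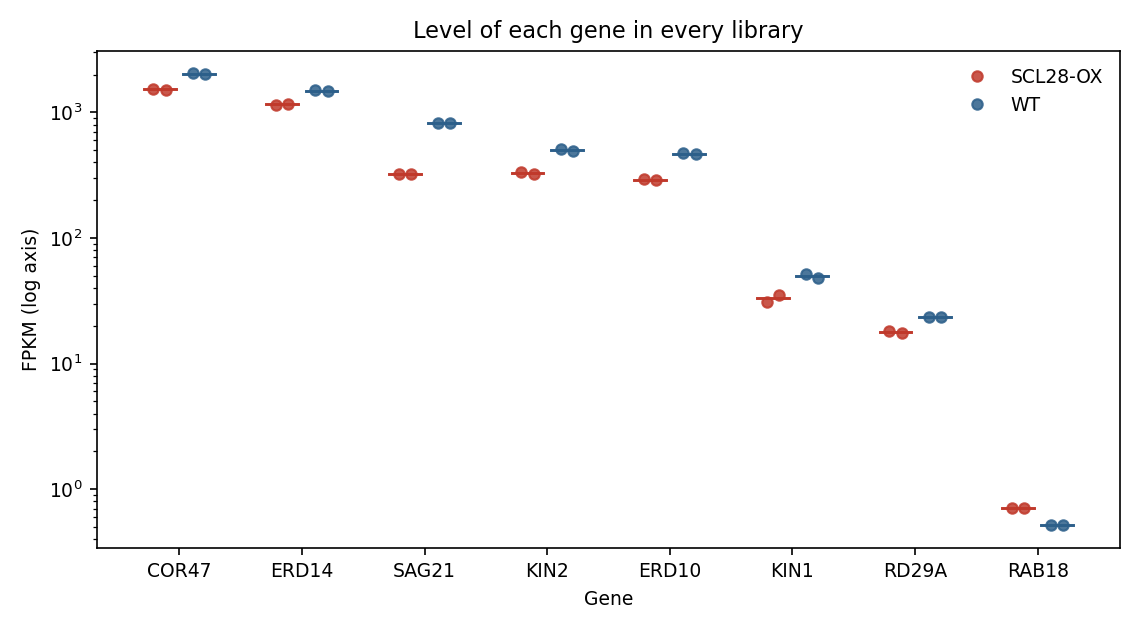
FPKM of each gene in every library on a log axis, SCL28-OX (red) left of WT (blue); points are libraries and bars are means of 2. Each gene but RAB18 sits lower in SCL28-OX; COR15A and COR15B, listed at 0, cannot be drawn on a log axis.

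KIN1 (AT5G15960, chromosome 5, 5209898 to 5210727) and KIN2 (AT5G15970, chromosome 5, 5211911 to 5212665) are adjacent genes for very small proteins induced by cold and ABA. KIN1 had 31.0 and 35.3 FPKM in SCL28-OX, against 51.6 and 48.3 FPKM in WT. KIN2 had 336.82 and 323.08 FPKM in SCL28-OX, against 513.14 and 494.79 FPKM in WT. Neither gene overlapped between genotypes, and KIN1 had the largest SE of the tested genes of the set. KIN1 averaged 33.1 ± 3.02 FPKM in SCL28-OX and 49.9 ± 2.35 FPKM in WT, or 66.3% of WT (SD, n = 2 each). KIN2 averaged 330 ± 9.72 FPKM in SCL28-OX and 504 ± 13 FPKM in WT, or 65.5% of WT (SD, n = 2 each). The pair thus kept nearly the same share of its WT level at levels about 10 times apart.

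The log2 change was -0.58 for KIN1 (SE 0.061, limma adjusted p = 0.000104) and -0.61 for KIN2 (SE 0.028, adjusted p = 1.84e-06). These are the shortest of the tested genes, with 549 and 480 bases of exon in their intervals. After the length correction the changes were -0.19 (adjusted p = 0.0250) for KIN1 and -0.20 (adjusted p = 0.00368) for KIN2. With length and GC content KIN1 was at -0.14 and no longer passed (adjusted p = 0.10), while KIN2 was at -0.17 (adjusted p = 0.00376). Under quantile normalization KIN2 was at -0.35. Neighbours on the chromosome, the genes are 83.5% identical over the aligned bases of their exons. Their upstream windows are 91.2% identical over the aligned bases (177 of 194), with the unaligned rest of each 250-base window left out. As the printed stretches show, both place a CACGTG and a CCGAC a short way apart. The KIN2 window held a further CACGTG at 73 bases that KIN1 lacked. KIN2 was the more abundant in every library, and the part of the windows in this was not tested. The ratio of KIN2 to KIN1 was 10.9 and 9.16 in SCL28-OX, against 9.94 and 10.2 in WT, so it overlapped between genotypes. Each gene had 1 word of 50 bases that occurs elsewhere in the genome, so that 99.8% of the KIN1 words and 99.7% of the KIN2 words were unique.

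RD29A (AT5G52310, chromosome 5, 21240849 to 21243613), listed in the files as LTI78, is widely used as a reporter of cold, drought and ABA. It had 18.1 and 17.4 FPKM in SCL28-OX, against 23.5 and 23.7 FPKM in WT. The genotypes did not overlap. Its mean was 17.7 ± 0.524 FPKM in SCL28-OX and 23.6 ± 0.138 FPKM in WT (SD, n = 2 each), or 75.2% of WT. The log2 change was -0.39 (SE 0.043, limma adjusted p = 0.000121). RD29A is the long gene of the set, with 2500 bases of exon in its interval. The median gene of 2303 to 2884 bases had a log2 change of 0.25. With the length correction the fall became larger, at -0.64 (adjusted p = 2.95e-05), and with length and GC content it was -0.75. By size of fall it ranked number 2424 of 18087 without correction and number 156 of 17723 with it.

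COR15A (AT2G42540, chromosome 2, 17711032 to 17712330) and COR15B (AT2G42530, chromosome 2, 17709036 to 17709945) encode LEA proteins of the chloroplast stroma that stabilise membranes during freezing. Both were listed at 0 in all 4 libraries and had no test. In the authors' deposited table neither was tested. Their exons are 83.2% identical over the aligned bases, and no word of 50 bases in either occurred elsewhere in the genome. The COR15B interval overlaps a gene on the opposite strand, AT2G42520, by 25 bases.

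SAG21 (AT4G02380, chromosome 4, 1046204 to 1046997), also called LEA5, encodes a mitochondrial LEA protein known from senescence and oxidative stress. It had 323.19 and 324.27 FPKM in SCL28-OX, against 818.14 and 819.05 FPKM in WT. The 2 libraries of each genotype were nearly equal and the genotypes stood far apart. The mean was 324 ± 0.762 FPKM in SCL28-OX and 819 ± 0.644 FPKM in WT (SD, n = 2 each). That is about 4801 and 4463 fragments in SCL28-OX and 14295 and 11991 in WT. The log2 change of -1.34 (SE 0.018, limma adjusted p = 4.7e-08) was the 22nd largest fall of 18087. With the length correction it was -1.0 (adjusted p = 1.28e-07), the 39th largest of 17723, and with length and GC content it was -0.99. SAG21 has 694 bases of exon in its interval, and genes of 111 to 746 bases had a median of -0.42. The interval shares 180 bases on the same strand with the annotated miRNA gene AT4G04125.

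**Figure D4:**
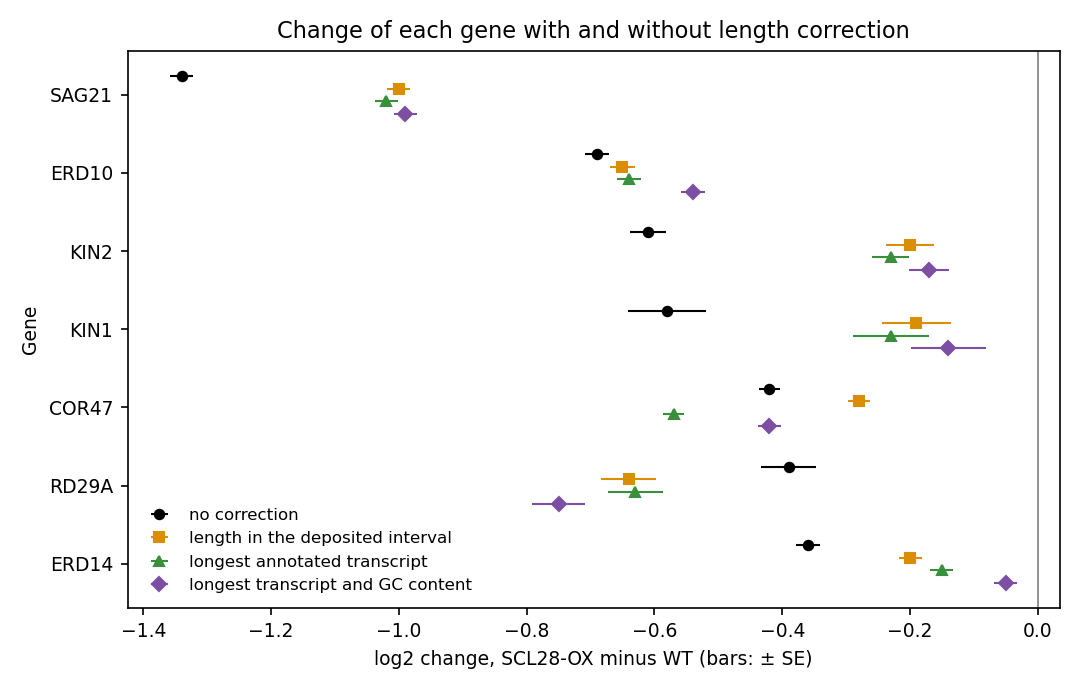
Log2 change (SCL28-OX minus WT) of the 7 tested genes, with bars of ± SE, without correction (circles) and with each of 3 corrections for length or length and GC content. SAG21 stays near or beyond -1 under each, RD29A moves further from 0 with correction, and KIN1, KIN2 and ERD14 move toward 0.

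In SCL28-OX the order of levels per length was COR47, ERD14, KIN2, SAG21, ERD10, KIN1, RD29A and RAB18. KIN2 (336.82 and 323.08 FPKM) and SAG21 (323.19 and 324.27 FPKM) did not differ beyond their spread there. In WT SAG21 stood next after ERD14, at 819 FPKM on average, above KIN2 at 504 FPKM and ERD10 at 470 FPKM, and no 2 neighbours in that order overlapped. Together the 10 genes summed to 3690 and 3661 FPKM in SCL28-OX, against 5430 and 5351 FPKM in WT. As a share of the summed FPKM of a library this was 0.435% and 0.431% in SCL28-OX and 0.571% and 0.566% in WT. COR47 and ERD14 made up most of it in both genotypes.

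The tested genes whose values over the 4 libraries lay closest to the median course of the set were AT1G20580, EXPA15 and AT3G02080. Likeness was the Euclidean distance between centred log2(FPKM + 1) values, taken without length correction. The distances were 0.0390, 0.0394 and 0.0397. EXPA15, which encodes a wall-loosening expansin, had 33.4 and 34.8 FPKM in SCL28-OX, against 51.8 and 48.0 FPKM in WT. With 2 libraries a genotype this is a description of 1 contrast seen in 4 values.

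The counts of related genes that follow stand beside 32.7% higher and 33.8% lower among all tested genes without correction, and 21.1% higher and 25.2% lower with the length correction. Among 6 other dehydrin genes 4 were tested, of which 2 were lower and none was higher without correction, with a median log2 change of -0.18. XERO2, a cold-induced dehydrin listed as LTI30, had 199.67 and 197.88 FPKM in SCL28-OX, against 322.87 and 322.57 FPKM in WT. Its libraries did not overlap, its log2 change was -0.70 (limma adjusted p = 5.96e-07) and it stayed lower with the length correction (-0.39). HIRD11, a small dehydrin that binds metal ions, was among the most abundant transcripts of the table, at 2462.63 and 2467.00 FPKM in SCL28-OX and 2750.79 and 2705.11 FPKM in WT. It was lower without correction (-0.15, adjusted p = 0.000113) but higher with the length correction (0.18, adjusted p = 0.000101). HIRD11 was also higher under quantile normalization (0.04, adjusted p = 0.0134). XERO1 (-0.21) and AT4G38410 (-0.08) did not pass, and AT2G21490 and AT4G39130 were listed at 0. Of 3 relatives of SAG21 only DI21, a drought-induced gene, was above the filter. It had 216.28 and 226.90 FPKM in SCL28-OX, against 353.02 and 343.12 FPKM in WT, with a log2 change of -0.65 (adjusted p = 1.64e-06), or -0.30 with the length correction.

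Upstream of the set, 9 of 15 CBF/DREB pathway genes were tested. Of these 6 were higher and 1 lower without correction, but 2 were higher and 1 lower with the length correction. The cold regulators CBF1, CBF2, CBF3 and CBF4 themselves were all below 1 FPKM, and CBF4 was listed at 0. CAMTA1, a calmodulin-binding activator, had 14.0 and 14.1 FPKM in SCL28-OX, against 8.98 and 8.25 FPKM in WT (log2 change 0.65, limma adjusted p = 4.58e-05, or 0.21 with the length correction). ICE1, which activates CBF3, was higher by 0.42, or 0.24 with the correction. SIZ1, a SUMO ligase that stabilises ICE1, rose by 0.44 without correction but stood at 0.02 (adjusted p = 0.671) with it. MYB15, a repressor of CBF genes, had 1.33 and 0.652 FPKM in SCL28-OX, against 1.89 and 2.46 FPKM in WT (-0.69, adjusted p = 0.00972), and did not pass without WT replicate 2 (-0.56, adjusted p = 0.0571) or with length and GC content (adjusted p = 0.0673). The drought regulator DREB2A, at 19.1 and 18.5 FPKM in SCL28-OX and 18.2 and 18.6 FPKM in WT, overlapped between genotypes.

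In ABA perception 9 of 11 receptor genes were tested, and 6 were lower and 1 higher. With the length correction 3 were lower and 2 higher, whereas with the longest transcript as length 6 were lower and 1 higher. PYL4 was the receptor gene that rose without correction, with 120.48 and 119.29 FPKM in SCL28-OX, against 75.4 and 77.3 FPKM in WT. Its log2 change was 0.64 (limma adjusted p = 1.31e-06), or 0.82 with the correction. The largest falls were those of PYL9 (-0.35, adjusted p = 0.00024) and PYL1 (-0.29, adjusted p = 5.89e-05). With the correction PYL9 was at -0.13 and PYL1 at -0.03, where PYL1 no longer passed (adjusted p = 0.427). With the longest transcript as length both passed, at -0.14 and -0.15, and with length and GC content neither did (adjusted p = 0.527 and 0.812). Of 9 clade A PP2C genes, the repressors of the pathway, 5 were tested, and HAB2 (0.26) and ABI1 (0.10) were higher without correction. The ABI1 call was lost without SCL28-OX replicate 2 (adjusted p = 0.169), WT replicate 1 (0.0981) or WT replicate 2 (0.106). With the length correction neither passed, at 0.03 and -0.03, and HAB1 was lower (-0.17, adjusted p = 0.0220), though not with length and GC content (adjusted p = 0.233).

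Downstream kinases and ABF/ABI factors gave 8 tested genes of 10, with 2 higher and 3 lower, or 1 higher and 3 lower with the length correction. ABF3, a factor that binds ABRE elements, had 36.5 and 35.0 FPKM in SCL28-OX, against 43.6 and 41.7 FPKM in WT. It fell by 0.25 on the log2 scale (limma adjusted p = 0.00083), and by 0.43 with the correction. ABF2 had a log2 change of -0.14 (adjusted p = 0.0270), or -0.34 corrected, and the uncorrected call was lost without SCL28-OX replicate 2 (adjusted p = 0.116), WT replicate 1 (0.0623) or WT replicate 2 (0.125). SNRK2.3, a kinase of the pathway, rose by 0.19 (adjusted p = 0.00452), or 0.24 corrected, and ABF4 rose by 0.14 but was at 0.02 corrected. ABF4 did not pass without SCL28-OX replicate 1 (adjusted p = 0.0929), WT replicate 1 (0.0535) or WT replicate 2 (0.0779). Among 13 genes of ABA synthesis and breakdown 7 were tested, with 3 higher and 2 lower, or 0 higher and 3 lower with the correction. The ABA-degrading hydroxylase CYP707A3 was at 2.5 and 2.57 FPKM in SCL28-OX and 3.78 and 3.68 FPKM in WT (-0.42, adjusted p = 0.00239), and stayed lower when corrected (-0.51). ABA2, a dehydrogenase of ABA synthesis, was lower as well (-0.28, or -0.13 corrected), but did not pass with the longest transcript as length (-0.07, adjusted p = 0.154). AAO3, the oxidase of the last step, rose by 0.70 without correction but was at 0.02 with it, and NCED3, which cleaves the carotenoid precursor, rose by 0.39 but was at 0.19 (adjusted p = 0.137) with it.

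Of 25 other genes known to respond to ABA, cold or dehydration 20 were tested. Of these 8 were higher and 6 lower, with a median log2 change of 0.03, or 8 higher and 2 lower with the length correction and a median of 0.08. Without correction these counts lie near the shares of all tested genes. With the longest transcript as length 7 were higher and 4 lower. ERD1, a chloroplast Clp protease regulator, had 28.9 and 30.3 FPKM in SCL28-OX, against 17.3 and 16.7 FPKM in WT (0.77, limma adjusted p = 5.01e-06, or 0.37 corrected). P5CS1, the first enzyme of proline synthesis, rose by 0.47, or 0.15 corrected (adjusted p = 0.0153), but did not pass with length and GC content (0.09, adjusted p = 0.0734). The small membrane proteins RCI2B and RCI2A fell without correction, by 0.51 and 0.44 on the log2 scale, but did not pass with it (-0.10, adjusted p = 0.0594, and -0.03, adjusted p = 0.364). Both passed with the longest transcript as length (-0.17, adjusted p = 0.00361, and -0.11, adjusted p = 0.0326). RD29B, the neighbour and relative of RD29A, stayed below 1 FPKM in every library, and RD20 was listed at 0.

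**Figure D5:**
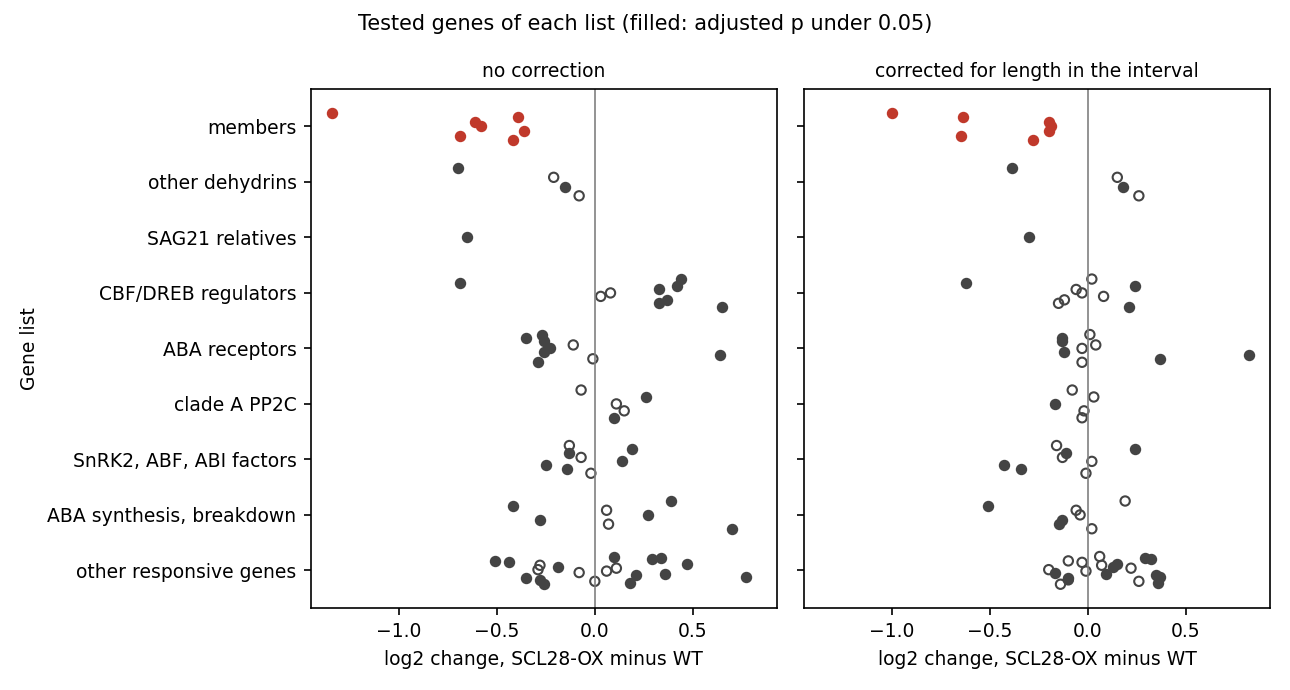
Log2 change (SCL28-OX minus WT) of each tested gene of the set (red) and of 8 lists of related genes (grey), without correction (left) and corrected for length in the deposited interval (right); filled points have an adjusted p under 0.05. The 7 tested genes of the set all lie left of 0 in both panels, and the other lists but the single tested SAG21 relative have genes on both sides of 0 in the right panel.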

How the data were processed

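The authors deposited FPKM per gene and library, per the file headers. The authors' deposited table of their own WT and OX comparison gives mean FPKM per group and, per the file headers, a q-value, which is an adjusted p-value. The submitters' processing notes name CASAVA 1.8.2, TopHat2 2.0.13, Cuffdiff 2.2.0 and TAIR10. Libraries were made with a stranded mRNA kit, per the labels' protocols; whether strand was used in counting: not given in the sources used here. Of 26883 lines, 60 had columns displaced by a space in the name and were dropped, and 1 further line is not analysed here. A second line is labelled RAB18 (AT1G43890, a GTPase gene); it was told apart by position.

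The test was two-sided limma 3.58.1 (R 4.3.3; lmFit and trended eBayes) on log2(FPKM + 1) of genes averaging 1 FPKM or more. Adjustment was by Benjamini-Hochberg over 18087 genes, at a threshold of 0.05. The pseudocount of 1 FPKM understates changes of low genes. FPKM are not counts, so no count model was used. Scaling totals were estimated from FPKM steps in 2731 single-transcript genes, where 93.4% to 94.9% of values of 1 to 15 fragments were whole within 0.1. Fragment numbers are approximate and cover counting error only. Libraries of a genotype differed by slightly more than counting noise (chi-square per degree of freedom 1.24 in SCL28-OX and 1.20 in WT) and each counted as 1 replicate. Length and GC trends were fitted per library with mgcv 1.9.3 over 17723 genes. The tests were checked on simulated data.

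The named genes are the 10 genes of the set, SCL28, the 3 nearest profiles, and from each list up to 2 rises and 2 falls past the threshold plus genes needed to account for the list. The genes, lists and rule were chosen with earlier results of these data known.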

Additional observations from a re-analysis of the deposited data

How the results depend on the processing

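The log2 changes of the 7 tested genes kept their direction and their call in 117 of 119 combinations of gene and alternative. The exceptions were COR47 under quantile normalization (0.00) and KIN1 with length and GC content (-0.14), as given above. Lower calls in the set numbered 7 with each library left out in turn, and higher calls 0; without a filter RAB18 made 1 higher call. Leaving out a library gave 5164 to 5343 higher and 5415 to 5732 lower calls over all genes, and 17 to 20 higher and 19 to 22 lower calls over the 8 other lists. Higher calls over all genes were 3876 with the longest transcript as length, 3528 with length and GC content and 3731 with the length in the interval, against 5911 without correction; lower calls with length and GC content were 4053, against 6112. In the 8 lists higher calls were 12, 10 and 14 in the same order, against 22, and lower calls with length and GC content were 11, against 21. The cause was not tested. The libraries of the 2 genotypes share only a replicate number (correlation of deviations 0.122 over 2 pairs); with the replicate number as a block there were 5793 higher and 6161 lower calls over all genes and 7 lower calls in the set. Depth limits RAB18, at 10 to 14 fragments, and FPKM of 0 give no floor.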
